A study of Homo sapiens with 7 samples.

Results

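The genes described here lost transcript from day to day while a histone demethylase was induced in human embryonic stem cells (hESCs). They were chosen by their FPKM (reads scaled to transcript length and library depth) in all 7 libraries. A gene had to fall at each step from Day 1 to Day 4 of doxycycline (Dox), to exceed 4 FPKM in both untreated libraries, and to lie at Day 4 below 0.5 of each untreated library and below 0.67 of the Dox-treated mutant line. After 11 pluripotency and signalling genes treated separately had been left out, 62 genes met these criteria, of 20187 rows on chromosomes. They are called steady fallers below. Since these values selected the genes, their falls are a description and carry no test.

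RNA-seq was performed on 2 lines of SEES-3 hESCs that constitutively expressed the reverse Tet-transactivator. The JMJD3c-hESCs carried a piggyBac construct in which Dox at 1 µg/ml induced JMJD3c, the HA-tagged catalytic domain of JMJD3 with a nuclear localization signal. The samples were Day 0, before Dox, and each of Days 1, 2, 3 and 4 after its addition. The JMJD3c mut-hESCs carried the same construct with a point mutation that removes the catalytic activity, and were sampled without Dox, on a day that the labels do not give, and with Dox, at Day 4 by the study's description. Both lines were selected with puromycin and kept in maintenance culture. Each condition had 1 library, so the differences could not be set against replicates, and p-values are absent.

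JMJD3, encoded by KDM6B, removes di- and trimethylation from lysine 27 of histone H3, a mark that Polycomb complexes place over silent developmental genes. Loss of this mark is best known for allowing such genes to be transcribed, and falling transcripts are the other face of the same time course. hESCs in their undifferentiated state also transcribe, at low to moderate levels, many genes better known from neurons, blood vessels and metabolic tissues.

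KDM6B itself, whose reads may come from the endogenous gene or the construct, went from 3.45 FPKM at Day 0 to 158, 212, 248 and 282 FPKM over Days 1 to 4. In the mutant line it was at 2.40 FPKM without and 454 FPKM with Dox, so both inductions were visible. The deposited values hold no read counts. The spacing of the lowest values gave an estimate of 1770000 to 3660000 reads per library, with Day 0 the shallowest and the untreated mutant line the deepest. The summed FPKM of 6 hESC markers went from 2198 at Day 0 to 1557 at Day 4 and in the mutant line was 2028 without and 1748 with Dox, with no marker at 0 in any library. The sum of 7 mesoderm and endoderm markers went from 5.49 at Day 0, where 4 of them were at 0, through 14.9, 59.7 and 111 to 176 FPKM at Day 4, where none was at 0. It stayed at 9.32 and 6.90 FPKM in the mutant line. Smaller rises were seen in 2 other lists. Before Dox the sum for 2 neuroectoderm markers was 2.22 FPKM, and over Days 1 to 4 it was 10.1, 7.47, 2.95 and 6.02. The mutant line had 0.879 without and 0.677 with Dox. For 3 trophoblast and amnion markers the sum was 0.146 FPKM before Dox and reached 4.68 by Day 4. The mutant line had 1.47 without and 0.382 with Dox. For 4 fibroblast markers the sum was between 16.7 and 36.5 FPKM, with DCN at 0 in every library. The steady falls thus ran alongside a rise of mesoderm and endoderm markers. The part of that rise in the falls was not tested, and in bulk RNA fewer cells of a type and less RNA per cell cannot be told apart.

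Of the 20187 rows, 8930 exceeded 4 FPKM in both untreated libraries and serve as the background. In this background 5.54% of genes were below 0.5 of Day 0 at Day 4, 3.58% were below 0.5 of the untreated mutant line, and 12% were below 0.67 of the Dox-treated mutant line. The falling order of Days 1 to 4 was met by 8.37% and the opposite, rising order by 8.05%. All criteria together were met by 0.728%, or 65 genes, of which UTF1, TET1 and KDM4C were among the names left out. Another 74 genes had the same falls at Day 4 without the order of the days. At the edges of the criteria, EIF2AK4 was the member nearest to 0.5 of Day 0, with a ratio of 0.491, and FAM57B missed at 0.506. For the untreated mutant line, HINFP was just inside at 0.498 and GPR176 just outside at 0.504. For the Dox-treated mutant line, HTRA1 was just inside at 0.658 and ALDOC just outside at 0.674.

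The members lay on 21 chromosomes, with 6 each (9.7%) on chromosomes 9 and 11, which held 4% and 5.9% of the background. All members except AP001888.1 had a gene model in GENCODE release 44, and these 61 were all protein coding. A pair of members were close neighbours in 4 cases. DGKA and PMEL on chromosome 12 were 77 bases apart, FBXL16 and METRN on chromosome 16 were 9.3 kb apart, NPDC1 and UAP1L1 on chromosome 9 were 31.3 kb apart, and PROCR and MMP24 on chromosome 20 were 49.3 kb apart. Of the 62 members, 16 overlapped another listed row, which for SOGA3 (KIAA0408) lay on the same strand. The background shares of such neighbours and overlaps were not counted.

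Promoters were read from GRCh37, the assembly of hg19, as the 250 bases before and 50 bases after the start of each gene's canonical GENCODE transcript. They could be read for 61 members, 8861 background genes and 19507 chromosome rows. These windows show which familiar promoter elements the genes share, which the selection did not use. A GC box (GGGCGG on either strand) occurred in 47 of 61 member promoters (77%), close to the 77.5% of the background, against 61.3% of all promoters. A CCAAT box (CCAAT) occurred in 27 (44.3%), against 37.4% of the background. The octamer ATGCAAAT, known as the binding word of POU factors, occurred in 3 (4.9%), those of LGR4, NRARP and PMEL, against 1.2% of the background and 1.5% of all promoters. An E-box (CACGTG) was found in 8.2% of member and 10.9% of background promoters, the SOX/TCF-like core ACAAAG in 13.1% and 9.6%, and a TATA box (TATAAA) in 4.9% and 4.4%. The NRF1-like palindrome was found in 0 of 61 member promoters and in 2.7% of the background. Median GC content was 67.3% in the members and 66.7% in the background. The observed over expected CpG ratio exceeded 0.6 in 51 of 61 member promoters (83.6%), a smaller share than the 92.1% of the background. Its median was 0.785 in the members and 0.879 in the background. A match is a description of letters and not evidence of binding.

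The 250 bases before the start are shown for 4 members that pair a measured fall with different promoter elements, in hg19 coordinates and in the direction of transcription, with the matches in capitals. INA (chr10:105036645-105036894, plus strand) holds 4 GC boxes. ZIC5 (chr13:100624022-100624271, minus strand) holds 3 CCAAT boxes. LGR4 (chr11:27494338-27494587, minus strand) holds 2 CCAAT boxes and an octamer on the opposite strand. NRARP (chr9:140196724-140196973, minus strand) holds 4 GC boxes, a CCAAT box, and an octamer that overlaps a TATA box.
INA: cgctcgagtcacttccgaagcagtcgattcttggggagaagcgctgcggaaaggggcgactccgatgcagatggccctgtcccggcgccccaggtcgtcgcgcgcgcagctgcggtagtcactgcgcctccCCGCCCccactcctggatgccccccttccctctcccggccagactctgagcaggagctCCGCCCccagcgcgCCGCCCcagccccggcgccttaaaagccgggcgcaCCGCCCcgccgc
ZIC5: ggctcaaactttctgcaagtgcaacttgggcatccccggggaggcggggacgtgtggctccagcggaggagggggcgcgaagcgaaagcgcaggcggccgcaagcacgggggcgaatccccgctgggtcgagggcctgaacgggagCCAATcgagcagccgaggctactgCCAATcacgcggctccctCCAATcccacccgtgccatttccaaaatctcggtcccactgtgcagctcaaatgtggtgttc
LGR4: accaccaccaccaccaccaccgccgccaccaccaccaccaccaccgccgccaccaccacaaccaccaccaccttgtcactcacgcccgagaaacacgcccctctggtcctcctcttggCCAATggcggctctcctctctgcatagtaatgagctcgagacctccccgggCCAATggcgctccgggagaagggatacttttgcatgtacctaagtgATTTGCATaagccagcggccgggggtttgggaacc
NRARP: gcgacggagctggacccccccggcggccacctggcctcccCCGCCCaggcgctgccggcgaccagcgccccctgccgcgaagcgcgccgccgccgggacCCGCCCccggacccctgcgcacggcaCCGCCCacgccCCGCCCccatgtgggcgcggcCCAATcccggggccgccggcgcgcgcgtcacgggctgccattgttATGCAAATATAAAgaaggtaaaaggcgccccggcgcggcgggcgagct

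**Figure D1:**
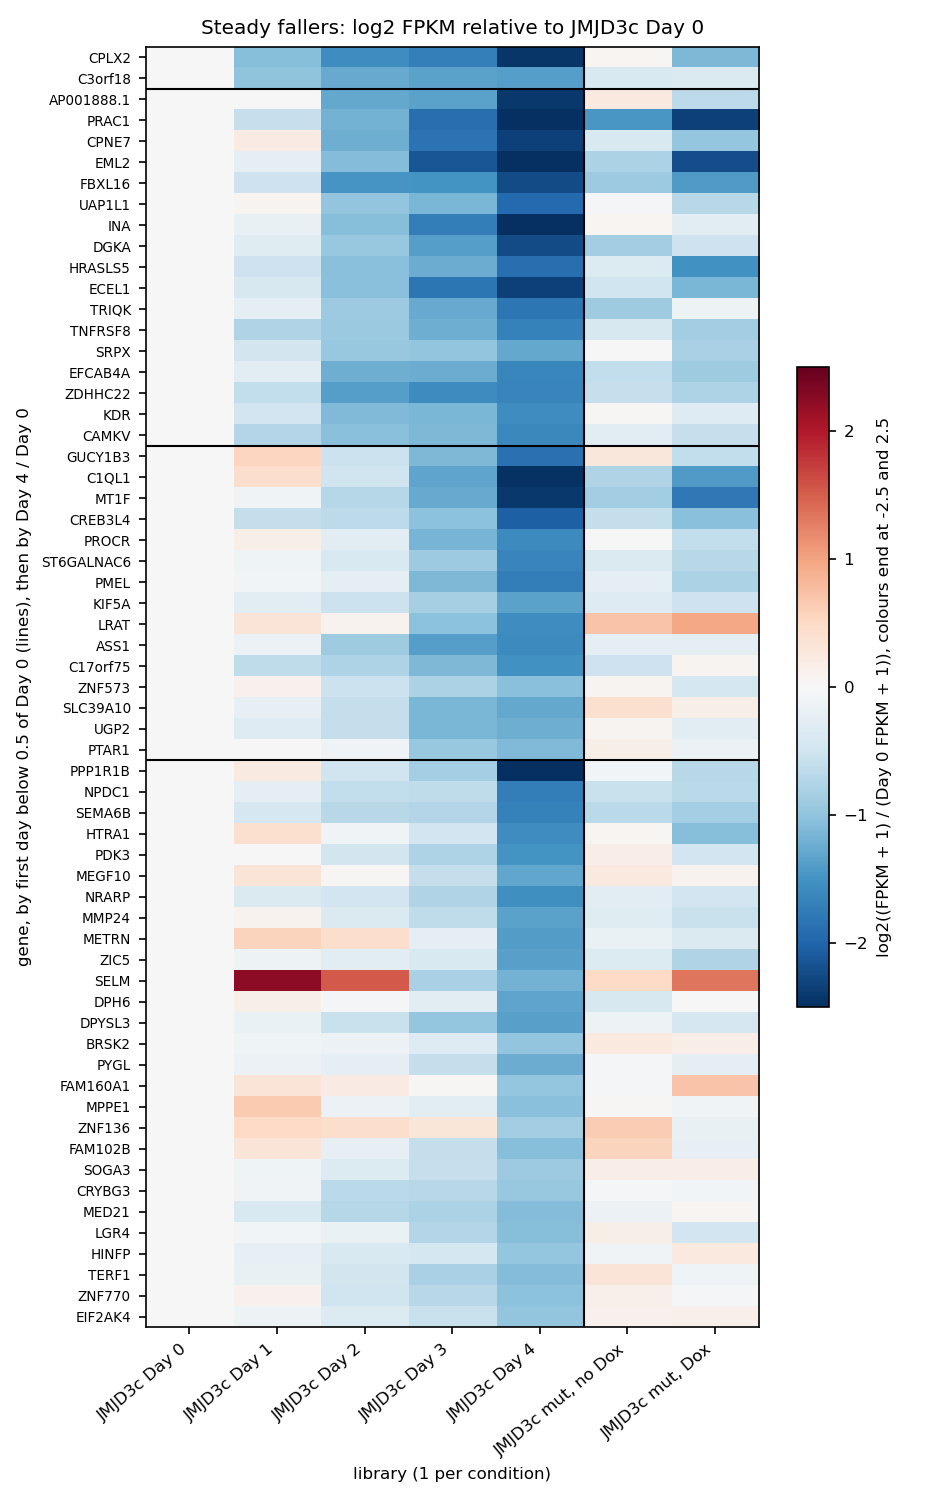
Each row is 1 of 61 steady fallers and each column 1 library. Colour is the log2 ratio of FPKM + 1 to that of JMJD3c Day 0, and the horizontal lines separate genes by the day they were first below 0.5 of Day 0, from Day 1 at the top (2 genes) over Day 2 (17) and Day 3 (15) down to Day 4 (27). The Day 4 column is the bluest, or shares the deepest colour, in every row. The mutant columns range from blue to red, with red where the mutant line was above Day 0, as for SELM, LRAT and FAM160A1 with Dox.

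The median FPKM of the 62 genes over Days 0 to 4 was 13.3, 13.5, 9.62, 6.49 and 3.73. The mutant line had a median of 11.7 without and 9.51 with Dox. Over the background genes the median stayed between 17.5 and 18.4 FPKM in all libraries. Against Day 0, the median member ratio over Days 1 to 4 was 0.907, 0.646, 0.474 and 0.304. This course is in part set by the order criterion, which makes Day 1 the highest of the 4 Dox libraries. The genes differed in when they halved. CPLX2 and C3orf18 were below 0.5 of Day 0 by the first day of Dox. A further 18 genes crossed that line on Day 2, 15 on Day 3 and 27 only on Day 4. The largest daily step, as a ratio, was from Day 3 to Day 4 in 36 genes, from Day 1 to Day 2 in 15 and from Day 2 to Day 3 in 11.

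**Figure D2:**
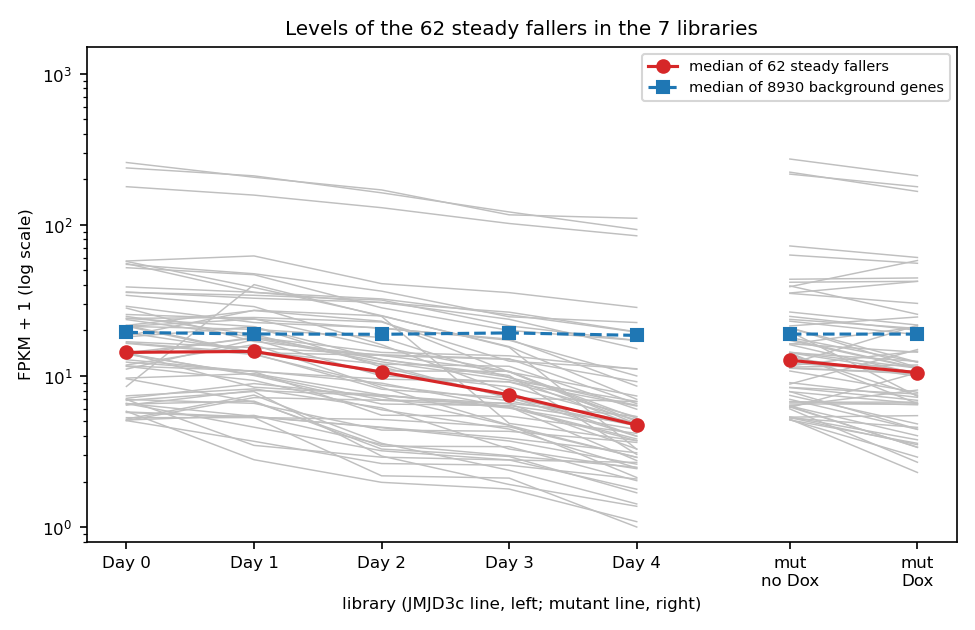
FPKM + 1 on a log axis for the 62 steady fallers (grey lines, 1 per gene) in the 5 JMJD3c libraries and the 2 libraries of the mutant line, with the median of the members (red) and of the 8930 background genes (blue). The red median declines from 13.5 FPKM at Day 1 to 3.73 FPKM at Day 4, while the blue median stays level.

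The order criterion starts at Day 1, so it does not set the step from Day 0, although a Day 0 high enough for the required fall bears on that step. Day 1 was below Day 0 in 40 of 62 members (64.5%), against 56.3% of the background. It was below 0.67 of Day 0 in 11 members (17.7%), against 8.69%, and above 1.5 of Day 0 in 5 members (8.06%), against 5.45%. Those 5 were GUCY1B3, SELM, METRN, MPPE1 and ZNF136. With the untreated mutant line as the reference, the median log2 ratio of Day 1 moved from -0.13 to -0.01. The Cufflinks 95% intervals of Day 1 and Day 0, which describe the estimate within 1 library, were apart for a fall in 3 members (2.78% of the background). These were KDR, TNFRSF8 and UGP2. The median ratio of Day 1 to Day 0 was 0.907 in the members, 0.965 in the background and 0.748 in the 74 genes with the same falls and no order. An order that starts at Day 1 favours genes that are high on that day, so these counts are a description.

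At Day 4 the interval lay below those of Day 0 and of both mutant-line libraries in 28 of 62 members (45.2%), where 2.23% of the background did, a count that the selection itself raises. Below, intervals at Day 4 are called apart where every comparison held and overlapping where any failed. Some genes called overlapping still lay below both untreated intervals, such as FBXL16, ZDHHC22, C1QL1, CREB3L4, PROCR and HTRA1. The 28 genes had a median of 21.3 FPKM in their lower untreated library, against 6.87 FPKM in the other 34. Among the 62, 19 genes were below 10 FPKM in both untreated libraries. By the depth estimate, made for the 61 members with a transcript length, 15 rested on fewer than 10 reads at Day 4, and 4 of these on fewer than 3. AP001888.1, listed at 0 FPKM at Day 4, had no such estimate. The more abundant genes therefore carry the better measured falls.

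The members are described below in groups drawn up by known function after the values had been seen, so the sizes of the groups carry no weight. Genes best known from neurons made up 13 members, of which 8 had intervals apart at Day 4, and their Day 4 to Day 0 ratios ranged from 0.0176 to 0.400. INA, α-internexin of the neuronal intermediate filaments (chr10:105036920-105050108), was at 23.0, 20.2, 10.5, 6.24 and 2.98 FPKM from Day 0 to Day 4. In the mutant line it was at 23.8 FPKM without and 19.0 FPKM with Dox, so all 3 reference libraries lay well above Day 4. At Day 4 INA stood at 0.130 of Day 0, with an interval of 1.78 to 4.06 FPKM against 18.4 to 27.5 FPKM.

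DPYSL3, a collapsin response mediator of growth cones (chr5:146770374-146889619), was far more abundant. It went through 237, 209.6, 162, 121 and 92.0 FPKM, and was at 215 and 177 FPKM in the mutant line without and with Dox. Every day took it lower, and its Day 4 to Day 0 ratio was 0.389. It rested on about 1183 reads at Day 4. In the mutant line its intervals were also apart, with the Dox-treated library at 0.824 of the untreated one.

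Among the other neuronal genes, PPP1R1B (DARPP-32, an inhibitor of protein phosphatase 1) had its own largest daily step, as a ratio, between Day 3 and Day 4. It was at 17.1, 20.1, 11.8, 9.07 and 2.02 FPKM in the JMJD3c line, and at 16.2 and 10.2 FPKM in the mutant line. ECEL1, a neuronal endopeptidase, was at 23.8, 17.7, 10.9, 6.11 and 3.92 FPKM, against 16.5 and 10.3 FPKM in the mutant line. The Dox-treated mutant library was thus the lower of that line's pair for both genes. CAMKV, a vesicle-associated pseudokinase, was at 27.1 FPKM at Day 0, 15.9 FPKM at Day 1 and 8.16 FPKM at Day 4. SEMA6B, an axon guidance protein, went from 18.3 to 5.02 FPKM, NPDC1 from 15.6 to 3.99 FPKM, and KIF5A, a kinesin of axonal transport, from 5.58 to 1.61 FPKM, all with intervals apart.

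The remaining 5 neuronal genes had overlapping intervals. CPLX2, a complexin that binds the synaptic fusion machinery, was at 4.83, 1.79, 0.976, 0.784 and 0.0851 FPKM, and at 5.04 and 1.68 FPKM in the mutant line. Its lowest value corresponds to about 1 read. C1QL1, a secreted synaptic protein, went from 10.8 FPKM at Day 0 through 15.1 FPKM at Day 1 to 1.13 FPKM at Day 4. METRN, a secreted neurotrophic protein, went from 17.4 to 6.002 FPKM and BRSK2, a kinase of neuronal polarity, from 4.72 to 1.89 FPKM.

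Not all neural genes went down. Of a list of 63 neural and neuroectoderm genes, 31 were above 4 FPKM in both untreated libraries. At Day 4, 5 of the 31 (16.1%) were below 0.5 of Day 0, namely DPYSL3, INA, ZIC5, HES3 and ROBO2, against 5.54% of the background. Another 5 were above 2 times Day 0. These were CDH2, CNTNAP2, FEZF1, OTX2 and ZIC1. HES3, a repressor of the Hairy family, had the deep Day 4 fall without the order, at 70.5, 46.3, 51.5, 35.3 and 10.8 FPKM.

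Genes of metabolism and metal handling made up 10 members, 7 of them with intervals apart. UGP2, which makes UDP-glucose for glycogen and sugar transfer, was the most abundant of all 62 (chr2:64068074-64118696). It was at 257, 205, 169, 115 and 109 FPKM from Day 0 to Day 4, and at 271 and 210.1 FPKM in the mutant line without and with Dox. Day 4 was at 0.425 of Day 0 and at 0.521 of the Dox-treated mutant line, and most of the fall was complete at Day 3. PYGL, the glycogen phosphorylase of liver, was at 34.9, 31.6, 29.7, 22.7 and 14.1 FPKM, with 34.2 and 29.2 FPKM in the mutant line. Unlike UGP2, it dropped mainly in the last days.

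ASS1, which joins citrulline and aspartate on the way to arginine (chr9:133320316-133376661), was at 51.0, 45.7, 27.2, 19.0 and 16.2 FPKM. The mutant line was level, at 42.6 FPKM without and 43.5 FPKM with Dox, and the Day 4 interval of 10.7 to 21.7 FPKM lay below both. Of 37 listed genes of serine, glycine, one-carbon and amino acid metabolism above 4 FPKM, ASS1 and SLC6A8 were below 0.5 of Day 0 at Day 4. That share, 5.4%, was close to the 5.54% of the background. SLC6A8 did not fall steadily, since it was at 44.5 FPKM at Day 3.

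LRAT, the enzyme that stores retinol as retinyl ester, went from 20.6 FPKM at Day 0 to 26.0 FPKM at Day 1, and then was at 22.0, 9.60 and 6.37 FPKM. In the mutant line it was at 34.4 FPKM without and 41.2 FPKM with Dox, so the untreated libraries of the lines differed by more than the first day of Dox changed it. SLC39A10, a zinc importer, was at 53.7, 46.4, 35.4, 23.6 and 21.5 FPKM, with 71.4 and 59.7 FPKM in the mutant line. PDK3, a kinase that restrains pyruvate dehydrogenase, went from 13.4 to 4.12 FPKM, and was at 15.1 and 9.32 FPKM in the mutant line. UAP1L1 was low throughout, from 5.51 FPKM at Day 0 to 0.684 FPKM at Day 4, with 5.32 and 3.02 FPKM in the mutant line.

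For the other 3 of this group the intervals overlapped. MT1F, a metallothionein with close paralogs that could share reads, went from 24.5 to 3.81 FPKM, with 12.9 and 6.42 FPKM in the mutant line. HRASLS5, a phospholipid acyltransferase, went from 5.56 to 0.779 FPKM, and had the lowest mutant-line ratio of all members, 0.310. ST6GALNAC6, a sialyltransferase, went from 10.6 to 2.73 FPKM.

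Receptors and signalling proteins made up 10 members, 6 of them with intervals apart. KDR, the VEGF receptor of early mesoderm and endothelium, was at 13.1, 9.06, 5.51, 5.37 and 3.79 FPKM (chr4:55944644-55991756). The mutant line had 13.4 FPKM without and 10.2 FPKM with Dox, so KDR was below both untreated libraries from Day 1 on. LGR4, a receptor for R-spondins that strengthen Wnt signalling, was at 34.7, 33.1, 30.8, 20.4 and 16.2 FPKM, and at 38.4 and 24.6 FPKM in the mutant line. Its mutant-line intervals were apart as well, at a ratio of 0.640. NRARP, a feedback protein of the Notch pathway, was at 27.9, 21.5, 19.8, 16.2 and 8.99 FPKM, with 22.7 and 19.6 FPKM in the mutant line.

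TNFRSF8, the CD30 antigen known from embryonal carcinoma, was at 13.2, 7.42, 6.48, 5.12 and 3.42 FPKM, with 9.78 and 6.78 FPKM in the mutant line. EIF2AK4, the GCN2 kinase that senses amino acid shortage, was at 37.8, 34.7, 29.5, 25.4 and 18.6 FPKM, and was level in the mutant line, at 40.7 and 41.2 FPKM. MEGF10, an engulfment receptor, was at 6.11, 7.89, 6.28, 3.71 and 1.89 FPKM, with 7.39 and 6.59 FPKM in the mutant line. Of these 3 genes, EIF2AK4 had the smallest fall and the flattest mutant line.

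The other 4 signalling genes had overlapping intervals. DGKA, a diacylglycerol kinase, went from 10.6 to 1.46 FPKM and was at 5.33 and 7.06 FPKM in the mutant line. GUCY1B3, a subunit of soluble guanylate cyclase, went from 4.18 through 6.47 FPKM at Day 1 to 0.421 FPKM. It was at 5.30 and 2.36 FPKM in the mutant line. PROCR, the endothelial protein C receptor, went from 6.38 to 1.43 FPKM, and EFCAB4A from 11.8 to 3.16 FPKM.

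Nuclear proteins made up 8 members. TERF1, which binds telomeric repeats within shelterin (chr8:73921099-73960357), was at 178, 156, 129, 101 and 83.5 FPKM. In the mutant line it was at 222 FPKM without and 165 FPKM with Dox, and these intervals were apart. A pluripotency and hESC list, which leaves out the 11 names set aside, held 54 genes above 4 FPKM. Of these, 5 (9.3%) were below 0.5 of Day 0 at Day 4, against 5.54% of the background. TERF1 alone met all criteria. The others were PIM2, PLA2G16, PRDM14 and TFAP2C, which at Day 4 were at 0.780, 0.602, 0.550 and 0.537 of the untreated mutant line. On the same list, FGF13, GAL, LEFTY1, NTS and OTX2 were above 2 times Day 0.

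ZIC5, a zinc finger factor of neural development, was at 15.8, 14.4, 12.8, 11.98 and 5.55 FPKM, and at 12.2 and 8.93 FPKM in the mutant line. ZNF770 was at 56.6, 61.2, 39.8, 34.6 and 27.4 FPKM, with 62.04 and 54.6 FPKM in the mutant line. These 2 and TERF1 had intervals apart. The intervals of the other 5 overlapped. CREB3L4, a membrane-bound transcription factor, went from 20.6 to 4.24 FPKM, MED21 of the Mediator complex from 22.6 to 10.1 FPKM, HINFP, a factor for histone H4 genes, from 11.3 to 5.32 FPKM, ZNF136 from 4.06 to 1.75 FPKM and ZNF573 from 4.11 to 1.49 FPKM. None of the 8 was below 0.5 of Day 0 before Day 3, and 6 were so only at Day 4.

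Proteins that act outside the cell or in pigment granules made up 4 members. The membrane metalloproteinase MMP24 went from 8.68 to 2.83 FPKM, with 6.86 and 5.56 FPKM in the mutant line, and had intervals apart. The secreted protease HTRA1 was at 12.7, 17.04, 11.8, 8.81 and 3.65 FPKM, and at 13.2 FPKM without and 5.55 FPKM with Dox in the mutant line, where its intervals were apart. PMEL, the fibril protein of melanosomes, went from 20.3 to 5.38 FPKM and SRPX from 4.06 to 1.08 FPKM.

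The remaining 17 members had no shared function. C17orf75 was at 54.4, 34.7, 31.3, 24.4 and 18.5 FPKM, with 37.9 and 57.0 FPKM in the mutant line. PTAR1, a prenyltransferase-like protein, was at 23.0, 23.4, 21.7, 11.5 and 10.1 FPKM, with 25.5 and 20.7 FPKM in the mutant line. FAM102B was at 13.2, 16.7, 11.4, 8.40 and 5.78 FPKM, with 19.8 and 11.3 FPKM in the mutant line. These were the 3 genes of the group with intervals apart. EML2, a microtubule-associated protein, had a deep fall. Its Day 4 interval, up to 14.29 FPKM, lay just below that of Day 0, from 14.50 FPKM, but overlapped both mutant-line intervals. It was at 33.1, 27.7, 15.1, 6.75 and 3.00 FPKM, and at 18.7 and 6.33 FPKM in the mutant line.

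PRAC1 was at 56.2, 37.5, 24.04, 14.5 and 2.27 FPKM, but the untreated mutant line had only 19.8 FPKM and the Dox-treated one 10.4 FPKM. It was the sole member with a value outside its own interval. CPNE7, a calcium-dependent phospholipid-binding protein, went from 5.88 to 0.372 FPKM, with 4.29 and 2.51 FPKM in the mutant line. AP001888.1 was at 4.29 FPKM at Day 0 and listed at 0 at Day 4, in a row without a current gene model. It was at 5.23 and 2.38 FPKM in the mutant line. The other 10 genes of the group, namely C3orf18, CRYBG3, DPH6, FAM160A1, FBXL16, MPPE1, SELM, SOGA3, TRIQK and ZDHHC22, had overlapping intervals and Day 4 values of 1.03 to 7.56 FPKM.

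The mutant line asks whether Dox lowered these genes without demethylase activity. The selection bounds the Dox-treated mutant library from below only, and favours genes that are high in the untreated one. The Dox-treated library was the lower of the pair in 49 of 62 members (79%), against 50.3% of the background. It was below 0.67 of the untreated library in 22 members (35.5%), against 4.74%, and below 0.5 in 8 members (12.9%), against 1.2%. The 8 were HRASLS5, CPLX2, EML2, HTRA1, GUCY1B3, AP001888.1, SRPX and MT1F. The median ratio was 0.804 in the members and 0.999 in the background. Of the 22 members below 0.67, only FAM102B, HTRA1 and LGR4 had mutant-line intervals that were apart. Both mutant-line libraries were used by the selection, so these shares describe the members, and whether their falls depend on the demethylase activity was not tested.

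Of the 74 genes with the same Day 4 falls and no order, which passed the same selection on the mutant line, 51 (68.9%) were lower with Dox in that line and 15 (20.3%) were below 0.67. Both shares lay between those of the background and of the members. Among the 28 members with intervals apart at Day 4, 24 were lower with Dox in the mutant line and 6 were below 0.67. The Dox-treated interval lay below the untreated one in 6 of 62 members (9.68%), against 1.76% of the background. The 6 were DPYSL3, FAM102B, HTRA1, LGR4, TERF1 and UGP2. At the other end, 4 members (6.45%) were above 1.5 of the untreated library, against 3.01%. They were SELM, FAM160A1, TRIQK and C17orf75.

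Between these ends, 25 members (40.3%) had a mutant-line ratio between 0.8 and 1.25, against 75.1% of the background, and 16 of the 25 had intervals apart at Day 4. They were ASS1, CAMKV, DPYSL3, EIF2AK4, INA, KIF5A, LRAT, MEGF10, MMP24, NPDC1, NRARP, PTAR1, PYGL, SEMA6B, SLC39A10 and ZNF770. DPYSL3 belongs to them by its ratio, although its mutant-line intervals were apart.

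**Figure D3:**
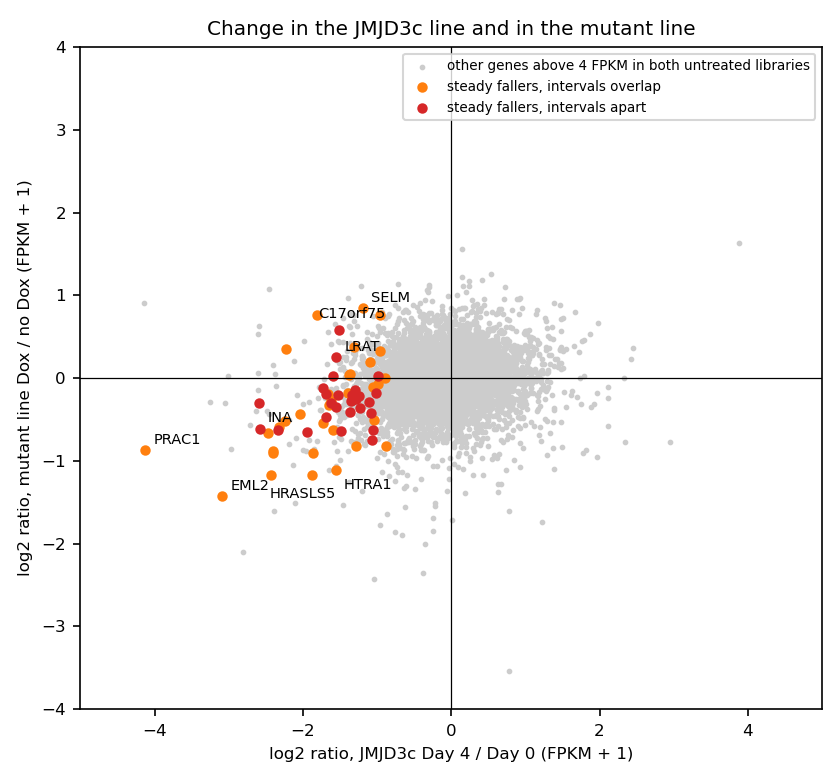
Each point is a gene above 4 FPKM in both untreated libraries. The x axis is the log2 ratio of Day 4 to Day 0 in the JMJD3c line and the y axis the log2 ratio with to without Dox in the mutant line, both on FPKM + 1. Steady fallers (coloured) lie at the left by selection, and 49 of 62 lie below 0 on the y axis.

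The untreated libraries of the lines differed in their own right. Day 0 was above 1.5 of the untreated mutant library in 12 members (19.4%), against 14.1% of the background. The ratios were 2.83 for PRAC1, 2.08 for FBXL16, 1.98 for DGKA, 1.97 for TRIQK and 1.90 for MT1F, and from 1.52 to 1.80 for the other 7. For these genes the fall measured from Day 0 was larger than that measured from the mutant line. EML2, for example, was at 0.0905 of Day 0 but at 0.161 of the untreated and 0.473 of the Dox-treated mutant line. The 3 comparisons at Day 4 share that library.

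The other lists are given by their counts, to be read beside the 5.54% of the background below 0.5 of Day 0 at Day 4. The background share above 2 times Day 0 was not counted for any list. The chromatin list left out the names set aside, TET1, KDM4C and DNMT3B among them. Among its 41 chromatin and DNA methylation enzymes above 4 FPKM, KDM3A and PRDM14 (4.9%) were below 0.5 of Day 0 at Day 4. Their Day 4 values were at 0.576 and 0.550 of the untreated mutant line. SMYD2 was above 2 times Day 0. Of the enzymes left out, TET1 and KDM4C met all criteria, at 0.404 and 0.279 of Day 0 at Day 4. DNMT3B went from 404 FPKM at Day 0 to 191 FPKM at Day 4. Of 40 epithelial junction and adhesion genes, CLDN4, ICAM3, L1CAM and TJP3 (10%) were below 0.5. Against the untreated mutant line their Day 4 ratios were 0.836, 0.911, 0.985 and 0.269, so only TJP3 was low against both untreated libraries. Of 26 FGF receptor and ERK feedback genes, FGF11 and RASGRP2 (7.7%) were below 0.5 and FGF13, FOS and IL17RD above 2. FGF11 and RASGRP2 were also low against the untreated mutant line, at 0.337 and 0.219, but did not fall at each step from Day 1. Of 19 NODAL and TGF-beta genes, 0 were below 0.5 and LEFTY1 was above 2, and 0 of 36 ribosome biogenesis genes crossed either line. These 5 lists, with 162 entries above 4 FPKM and without the names set aside, held 0 steady fallers. The neural list held 3 of 31, the pluripotency list 1 of 54 and the amino acid list 1 of 37. All criteria together were met by 0.728% of the background, and with lists of this size the counts say little.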

How the data were processed

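Poly(A) RNA of 7 samples was sequenced as 150-base single-end reads on a MiSeq. The authors mapped them to hg19 with TopHat2 v2.0.13, calculated FPKM per gene with Cufflinks v2.1.1, and deposited FPKM with lower and upper 95% bounds. A directional library kit was used. Whether counting used the strand was not given in the sources used here. Samples were grouped by their titles.

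The 62 members, their groups by function and the gene lists were chosen with earlier results of these data known. Ratios are of FPKM without a pseudocount. Log2 ratios add 1 FPKM. No test was made, because each condition had 1 library. Depth was estimated from the FPKM steps worth 1, 2 and 3 reads in 819 genes with 1 exon, after taking 200 bases off each transcript length, and limits the precision of low values. The estimates cover counting error only. Named by rule were the 12 members with the smallest largest Day 4 ratio, the 10 most abundant, those on the lists, and the genes at the edges, not all with every value. Others were named after their values were seen. Some genes are not reported here by name. Symbols and hg19 loci are those of the files. GENCODE release 44 on GRCh37 gave strands, transcript lengths and promoter starts. The selection code was run on simulated data without noise, where 50 of 50 planted falls and 0 of 150 other genes were returned. The criteria fix that outcome, so it checks the code and not the accuracy on single shallow libraries. Alternatives changed the cutoffs, the scaling, the pseudocount, the order and the reference. Python 3.11.15, numpy 2.4.6, pandas 2.3.3 and matplotlib 3.10.9 were used.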

Additional observations from a re-analysis of the deposited data

Results flagged for a closer look

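In 4 steady fallers the Dox-treated mutant line went the opposite way from Day 4 of the JMJD3c line, above 1.5 of its untreated library. With 1 library per condition this difference was not tested. The ratio with to without Dox in the mutant line was 1.87 for SELM, 1.84 for FAM160A1, 1.78 for TRIQK and 1.503 for C17orf75, while Day 4 was at 0.363, 0.422, 0.238 and 0.340 of Day 0 in these genes. No member had a Dox-treated interval above the untreated one in the mutant line. SELM was at 7.51, 39.2, 23.8, 3.85 and 2.73 FPKM from Day 0 to Day 4, and its Day 4 interval ran from 0 to 1283.2 FPKM.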

How the results depend on the processing

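The number of steady fallers followed the cutoffs. It was 62 as reported, 133 with untreated libraries above 1 FPKM, 36 above 10 FPKM, 24 with Day 4 below 0.33 and 152 with Day 4 below 0.67 of each untreated library. It was 136 with no order of the days, 40 with the order counted from Day 0, and 28 with Cufflinks intervals apart. Alternatives chosen after seeing the data gave 97 without the condition on Day 0, 135 without that on the untreated mutant line, 108 without Day 2 in the order, 104 without Day 3, and 40 with the Dox-treated mutant line above 0.67 of the untreated one. The median log2 ratio of Day 1 to Day 0, -0.13, was -0.0093 with the untreated mutant line as reference. With libraries scaled by median ratios, 55 genes met the criteria, 53 of them among the 62. Of 30 alternatives, 17 stayed within 1.5 times the count or 0.1 in log2, and 13 did not. A reversal was possible only for the log2 ratios, of which 0 reversed. No paired analysis was possible because each condition had 1 library. Genes below about 10 reads at Day 4, 15 of the 61 with a transcript length, are the least certain, together with AP001888.1, listed at 0.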
